A study of Mus musculus with 16 samples.

Results

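The genes described here are 8 mouse genes that are named for, or known from, the oocyte: Oog1, Oog2, Oog3 and Oog4 (the oogenesins), Omt2a and Omt2b (oocyte maturation alpha and beta), Oas1d, and Rfpl4. They were taken by name from the expression table, where they make up 8 of 27987 gene names and 10 of 28618 entries. Oog2 and Oog4 each have 2 entries, which the table does not tell apart and which are called entry 1 and entry 2 here in the order of the table. The table holds 16 RNA-seq libraries, 4 from each of 4 groups: germinal vesicle (GV) oocytes and metaphase II (MII) eggs of wildtype (WT) females and of Psma7 cKO females. PSMA7 is an alpha-ring subunit of the 20S proteasome, and the study asked what its loss in the oocyte does to maturation and to the transcriptome. WT GV oocytes came from wildtype females of 3 to 4 weeks, 44 h after 5 IU of PMSG, a gonadotropin that drives follicle growth. WT MII eggs came from wildtype females of the same age that received PMSG and, 44 h later, hCG, which triggers ovulation. They were flushed from the oviduct 14 to 16 h after hCG and freed of cumulus cells with 0.3% hyaluronidase. The cKO GV and cKO MII groups were collected in the same way from Zp3-Cre; Psma7 flox/flox females, in which Cre is driven by the promoter of a zona pellucida gene that is active in growing oocytes. The labels do not say whether the wildtype females carried floxed alleles. Each library was made from a pool of 5 oocytes (the methods of the study give a larger pool), the labels call the 4 libraries of a group biological replicates, and which females gave a pool is not stated.

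Oogenesins are leucine-rich repeat proteins of the PRAME family, a family that has multiplied in the mouse genome and is expressed in germ cells. OAS1D belongs to the 2′-5′ oligoadenylate synthetases, sensors of double-stranded RNA in innate immunity, but lacks the synthetase activity and is made in the ovary. RFPL4 is a RING-finger-like protein of the oocyte that was reported to bind proteins of the ubiquitin-proteasome pathway. During maturation the oocyte does not transcribe: many stored mRNAs lose their poly(A) tail and are degraded, while others gain a longer tail and are translated. Libraries were primed with oligo-dT, so more mRNA and better capture of an mRNA with a longer tail cannot be told apart in these values, nor can fewer contributing oocytes and less RNA per oocyte.

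In GRCm38, with GENCODE annotation, Oog2 (chr4:144190719-144196934, + strand), Oog3 (chr4:144157557-144162663, − strand) and Oog4 (chr4:143437164-143450324, − strand) lay among other PRAME genes on chromosome 4. Oog2 and Oog3 were 28056 bp apart, and the PRAME gene C87977 lay 9841 bp from Oog2. Oog1 lay alone among the 4, at chr12:87602688-87608850 (+ strand). Omt2a (chr9:78311972-78314796, − strand) and Omt2b (chr9:78327589-78329620, + strand) were neighbours 12793 bp apart. Oas1d (chr5:120914536-120921652, + strand) lay in the Oas1 cluster, 7015 bp from Oas1a, and Rfpl4 lay at chr7:5109787-5116950 (− strand). No annotated gene overlapped any of the 8. The coding sequences of the oogenesins were between 74.6% (Oog2 and Oog4) and 81.4% (Oog1 and Oog3) identical over the aligned bases, and those of Omt2a and Omt2b were 81.1% identical.

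Such likeness limits how well short reads can be assigned. Of all 50-base stretches of the transcript, 96.8% for Oog1 also occurred in transcripts of other genes, chiefly Gm2042. The share was 45.2% for Oog2 (chiefly Gm13084), 19.7% for Oog3 (chiefly Gm4350), 0.792% for Oog4, 29.5% for Omt2a and 51.5% for Omt2b (each with the other), 6.24% for Oas1d and 0% for Rfpl4. The values of Oog1 above all, and in part those of Oog2 and the Omt2 genes, are therefore uncertain. How the authors' counting divided shared reads is not given in the sources used here.

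The promoters of the 4 oogenesins are shown because they are close copies of each other, while the genes moved in different directions over maturation. Each window runs from 250 bases before to 50 bases after the start of the gene in RefSeq (GRCm38.p6), and 7 of the 8 genes had one (not Oas1d). Capitals mark the 5 runs of at least 8 bases that all 4 oogenesin promoters held in the same order.
Oog1 promoter, chr12:87602415-87602714, + strand: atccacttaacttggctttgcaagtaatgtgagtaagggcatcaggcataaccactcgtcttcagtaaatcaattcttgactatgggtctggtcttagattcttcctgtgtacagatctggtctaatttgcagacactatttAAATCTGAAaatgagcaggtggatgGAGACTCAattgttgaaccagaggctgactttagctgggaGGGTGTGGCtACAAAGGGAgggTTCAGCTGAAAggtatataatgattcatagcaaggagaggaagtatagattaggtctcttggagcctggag
Oog2 promoter, chr4:144190467-144190766, + strand: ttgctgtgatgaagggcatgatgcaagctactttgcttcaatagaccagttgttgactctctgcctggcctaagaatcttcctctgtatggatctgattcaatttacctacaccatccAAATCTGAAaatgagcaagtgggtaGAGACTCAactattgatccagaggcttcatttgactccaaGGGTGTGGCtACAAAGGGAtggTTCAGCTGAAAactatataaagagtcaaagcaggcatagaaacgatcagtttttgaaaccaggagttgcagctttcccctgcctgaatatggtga
Oog3 promoter, chr4:144162602-144162901, - strand: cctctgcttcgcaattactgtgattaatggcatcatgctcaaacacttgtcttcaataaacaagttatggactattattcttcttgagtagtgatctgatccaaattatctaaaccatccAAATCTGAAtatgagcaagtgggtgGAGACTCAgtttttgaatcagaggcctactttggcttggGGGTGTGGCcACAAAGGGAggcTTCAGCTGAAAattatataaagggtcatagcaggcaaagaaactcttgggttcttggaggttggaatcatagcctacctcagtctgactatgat
Oog4 promoter, chr4:143450275-143450574, - strand: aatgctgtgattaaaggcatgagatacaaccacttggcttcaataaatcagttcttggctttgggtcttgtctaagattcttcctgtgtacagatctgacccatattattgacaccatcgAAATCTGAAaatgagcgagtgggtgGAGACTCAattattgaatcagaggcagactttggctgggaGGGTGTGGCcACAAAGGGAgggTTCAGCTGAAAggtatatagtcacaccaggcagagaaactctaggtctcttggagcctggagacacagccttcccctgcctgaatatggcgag
In a joint alignment of all 4, pairs of these windows were 74.4% (Oog1 and Oog2) to 83.6% (Oog1 and Oog4) identical over the bases aligned in both. The longest shared run, TTCAGCTGAAA, occurred in 17 of 32851 promoter windows of the same length, or 0.0518%. These include the 4 oogenesins from which the run was taken, Gm2042, which shares sequence with Oog1, and the PRAME genes Pramel23, Pramel26 and Pramel32. The run contains CAGCTG, a form of the E-box CANNTG that the oocyte factor FIGLA can bind. CAGCTG was held by 16.3% of all windows and by 5 of the 7 members' windows, the 4 oogenesins and Rfpl4. CANNTG, of which CAGCTG is 1 form, was held by 72.3% of all windows and by 7 of 7 members. The letters TAATTG, bound by the oocyte factor NOBOX, were held by 8.00% of all windows and by Omt2b, Oog3 and Oog4 on either strand.

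The ends of the mRNAs are shown because signals there control the poly(A) tail during maturation. In the last 100 bases of the transcript, the cytoplasmic polyadenylation element TTTTAT or its variant TTTTAAT was held by 17.7% of 19221 genes. Among the members, Oog1, Oog3, Omt2a, Omt2b and Rfpl4 held TTTTAT, and Oog2, Oog4 and Oas1d held neither form. In 3 members the element lay close to the polyadenylation signal AATAAA, and capitals mark both.
Oog3 3′ end, chr4:144157559-144157587, - strand: atAATAAAtgtgttaactttgTTTTATtt
Omt2a 3′ end, chr9:78312018-78312037, - strand: acggTTTTATAATAAAtaaa
Omt2b 3′ end, chr9:78329563-78329582, + strand: acggTTTTATAATAAAtaaa
The Omt2a and Omt2b stretches are the same 20 bases, in which the element directly precedes the signal.

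The values are FPKM, fragments scaled to the length of the transcript and to the mapped fragments of the library, so that levels can be compared between genes. The spacing of low FPKM values put the depth at 10.5 M to 15.7 M fragments per library, and the sum of FPKM was 392306 to 421173. Psma7 was at 165 ± 25.3 FPKM in WT GV oocytes, 14.6 ± 2.82 in cKO GV oocytes, 126 ± 32.1 in WT MII eggs and 39.7 ± 20.2 in cKO MII eggs (mean ± SD, n = 4 each). All 11 oocyte markers had a mean of at least 1 FPKM in every group. The summed level of 17 cumulus and granulosa cell markers was 18.0 to 24.4 FPKM per library, with 3 or 4 of the 17 at a mean of at least 1 FPKM, Cyp19a1 the highest, and Fst, Foxl2 or Amh at 0 in at least 1 group each. The 2 blood markers in the table summed to at most 0.544 FPKM.

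Together the 8 genes held a larger share of the library in MII eggs than in GV oocytes in both genotypes. Their summed level was 3845 ± 229 FPKM in WT GV, 3707 ± 95.7 in cKO GV, 7518 ± 215 in WT MII and 7344 ± 368 in cKO MII (n = 4 each), or 0.949%, 0.917%, 1.90% and 1.80% of the sum. Per length, Oas1d (1474 ± 144 FPKM) and Rfpl4 (1243 ± 154) stood highest in WT GV oocytes, with overlapping libraries, followed by Oog3 (705 ± 85.5) and Oog1 (182 ± 26.1), which were apart from their neighbours in the order. Oog2 entry 1 (80.3 ± 9.10), Omt2b (64.1 ± 10.6), Omt2a (48.8 ± 5.28) and Oog4 entry 1 (40.0 ± 13.1) followed, each with libraries that overlapped those of the next. In WT MII eggs the order was Rfpl4 (3525 ± 182), well above all other members, Oas1d (1677 ± 97.4), Oog3 (1544 ± 81.2), Omt2b (383 ± 61.9), Omt2a (230 ± 30.8), Oog1 (97.4 ± 12.4), Oog2 entry 1 (37.2 ± 2.66) and Oog4 entry 1 (20.6 ± 14.8). Of these neighbours, Oas1d overlapped with Oog3 and Oog2 entry 1 with Oog4 entry 1. Among all entries of the table, Rfpl4 ranked 34 by mean level in WT GV and 8 in WT MII, and 34 and 6 in cKO.

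**Figure D1:**
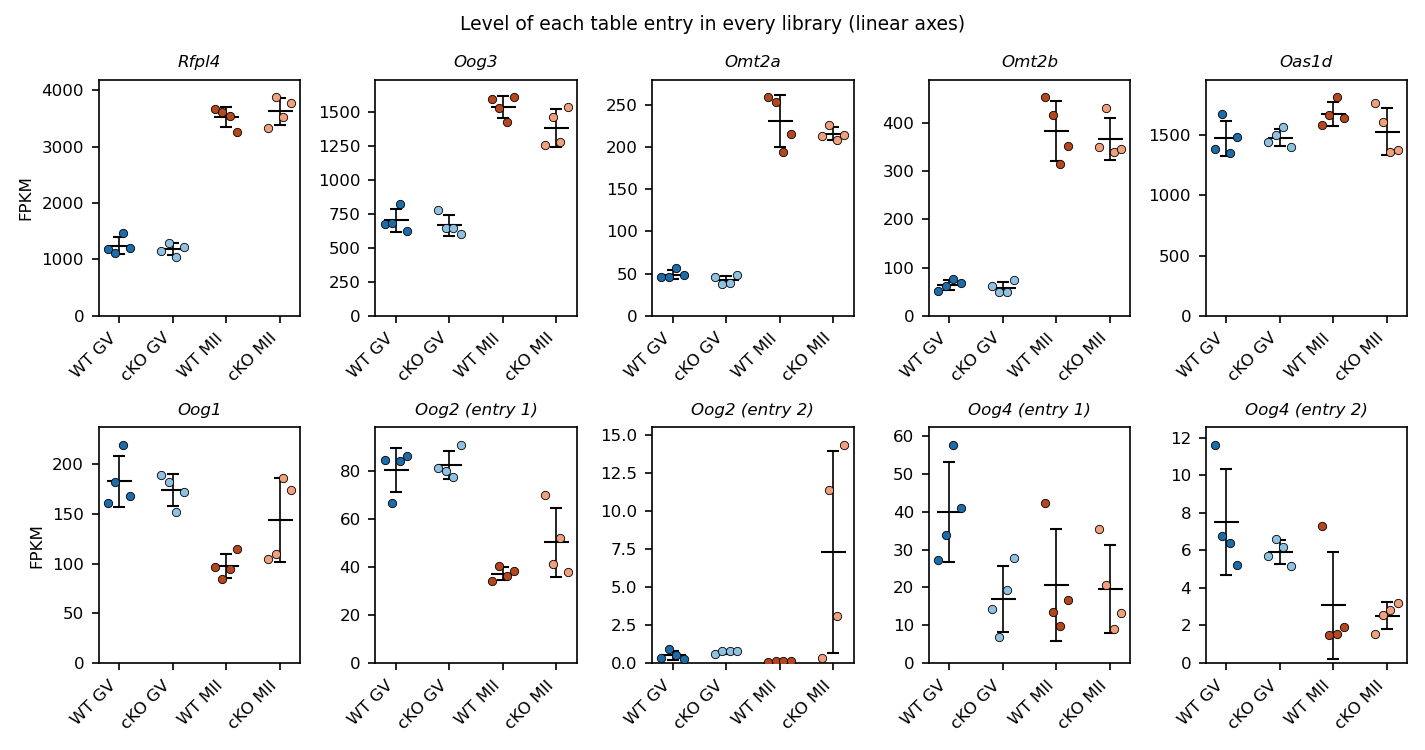
FPKM of each of the 10 table entries of the 8 genes (linear axes) in the 4 groups, with points for single libraries and bars for the mean and SD (n = 4). Rfpl4, Oog3, Omt2a and Omt2b were higher in all 8 egg libraries than in all 8 GV libraries, and Oog2 entry 2 was above 3 FPKM in 3 cKO egg libraries and nowhere else.

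The first comparison asked how these mRNAs change over maturation in WT. Of the 9 entries tested (Oog2 entry 2 lay below the filter of a mean of 1 FPKM), 4 rose and 4 fell. Across all 10475 entries tested, 26.1% rose and 52.4% fell, and the median difference was −0.44 on the log2 scale, against −0.22 after rescaling libraries by the median ratio. All differences are on log2 FPKM with values under 1 set to 1, and calls are at an adjusted p under 0.05 by limma with Benjamini-Hochberg adjustment over all entries tested.

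Rfpl4 rose most in absolute level. It stood at 1178, 1119, 1468 and 1206 FPKM in the 4 WT GV libraries and at 3672, 3623, 3542 and 3264 in the 4 WT MII libraries. Every egg library was above every GV library, and the rise was 2.85-fold (log2 1.51, SE 0.10, adjusted p = 1.31e-07, limma).

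Omt2a and Omt2b, whose small proteins were described from maturing oocytes, rose by the largest factors among the members. Omt2a went from 45.3, 45.4, 56.5 and 47.8 FPKM in WT GV to 258, 253, 194 and 216 in WT MII, 4.71-fold (log2 2.24, SE 0.11, adjusted p = 1.89e-08, limma). Omt2b went from 51.5, 60.9, 76.8 and 67.1 FPKM to 452, 416, 315 and 351, 5.99-fold (log2 2.58, SE 0.14, adjusted p = 3.74e-08, limma). In both genes WT MII replicates 1 and 2 were above replicates 3 and 4, and the groups were far apart. The ratio of Omt2b to Omt2a was 1.31 ± 0.119 in WT GV and 1.66 ± 0.0605 in WT MII, with no overlap between the libraries (1.14 to 1.40 against 1.62 to 1.75). Given the bases the pair shares, this ratio depends on how reads were divided between them.

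The oogenesins split. Oog3 rose from 679, 686, 827 and 627 FPKM in WT GV to 1596, 1536, 1432 and 1611 in WT MII (log2 1.14, SE 0.09, adjusted p = 9.84e-07, limma). Oog1 fell from 161, 182, 219 and 168 FPKM to 96.7, 84.7, 94.1 and 114, with a log2 difference of −0.90 (SE 0.12, adjusted p = 3.48e-05, limma). In both genes the 2 stages did not overlap. Oog2 entry 1 fell from 84.3, 66.7, 84.2 and 86.0 FPKM to 34.1, 40.2, 36.1 and 38.3, also without overlap (log2 −1.11, SE 0.10, adjusted p = 1.88e-06, limma). The ratio of Oog3 to Oog1 was 3.74 to 4.22 in WT GV libraries and 14.1 to 18.1 in WT MII libraries. With rescaled libraries the differences were −0.68 for Oog1, −0.88 for Oog2 entry 1 and 1.36 for Oog3, so Oog1 and Oog2 fell by more than the median of all entries on either scaling.

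Oog4 was low and scattered. Entry 1 read 27.2, 33.9, 57.8 and 41.1 FPKM in WT GV and 42.4, 13.5, 9.81 and 16.8 in WT MII, and entry 2 read 11.6, 6.78, 6.41 and 5.22 against 7.31, 1.50, 1.53 and 1.94. WT MII replicate 1 was the highest egg library in both entries and lay within the GV range. Both entries passed as lower, entry 1 with a log2 difference of −1.14 (SE 0.39, adjusted p = 0.0205, limma) and entry 2 with −1.58 (SE 0.46, adjusted p = 0.00886, limma). The call for entry 1 was lost without WT GV replicate 3, WT MII replicate 2 or WT MII replicate 3 (log2 −0.94, −1.01 and −0.86, adjusted p = 0.0733, 0.0547 and 0.0596, limma), after rescaling (log2 −0.91, adjusted p = 0.0549, limma) and without the filter on low values (log2 −1.14, adjusted p = 0.0955, limma). Without WT MII replicate 1 the adjusted p was 0.000337 and the difference −1.56.

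Oas1d did not pass. It read 1384, 1674, 1356 and 1483 FPKM in WT GV and 1583, 1667, 1813 and 1644 in WT MII, and the stages overlapped. The difference was 0.19 on the log2 scale (SE 0.09, adjusted p = 0.0737, limma) as deposited. It passed as higher when libraries were rescaled (0.41, adjusted p = 0.00243, limma) and without WT GV replicate 2 (0.25, adjusted p = 0.0213, limma).

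Relatives of these genes were read, in the same fit, from lists of names chosen with earlier results of these data known. Of 14 entries of other Oas genes and of the genes acting on 2′-5′ oligoadenylates, 6 were tested in WT and all 6 fell (median log2 −1.75, or −1.52 after rescaling). Oas1e and Oas1c, which share short stretches of sequence with Oas1d, went from 1793 ± 180 to 786 ± 74.1 FPKM (log2 −1.19, adjusted p = 8.78e-07, limma) and from 924 ± 84.8 to 365 ± 25.5 FPKM (log2 −1.34, adjusted p = 1.47e-07, limma). Oas1h fell by 2.15 on the log2 scale (adjusted p = 1.92e-08, limma). In GV oocytes Oas1e was thus above Oas1d in mean level, and in eggs Oas1d was the highest of the family. Of 29 entries of 25 other PRAME genes, 13 were tested, 9 fell and 1 rose (median log2 −0.99). After rescaling 8 fell and 2 rose, Pramef17 being the second. The one that rose on both was C87499, from 131 ± 10.8 to 254 ± 19.3 FPKM (log2 0.96, adjusted p = 1.99e-06, limma), while C87977 entry 1, near Oog2, fell from 742 ± 44.4 to 203 ± 18.2 FPKM (log2 −1.87, adjusted p = 8.78e-09, limma).

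Proteins reported to bind RFPL4 and OOG1 were also read at the mRNA level. Of the RFPL4 partners, the ubiquitin-conjugating enzyme gene Ube2a fell by 2.28, the 20S beta-subunit gene Psmb1 by 2.72 and the ubiquitin gene Ubb by 2.84 on the log2 scale (adjusted p = 7.22e-09, 7.92e-08 and 8.68e-09, limma). Ccnb1, which encodes cyclin B1, rose by 0.68 (adjusted p = 4.29e-06, limma). Ralgds, which encodes a guanine nucleotide exchange factor reported to bind OOG1, was between 6.56 and 10.4 FPKM in WT GV libraries and between 0.614 and 1.01 in WT MII libraries, a fall (log2 −3.09, adjusted p = 1.70e-08, limma). Of 20 other oocyte genes with 21 entries, 4 of the 20 entries tested rose (H1foo, Oosp1, Oosp3 and Btg4, with Bmp15 after rescaling) and 12 fell.

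**Figure D2:**
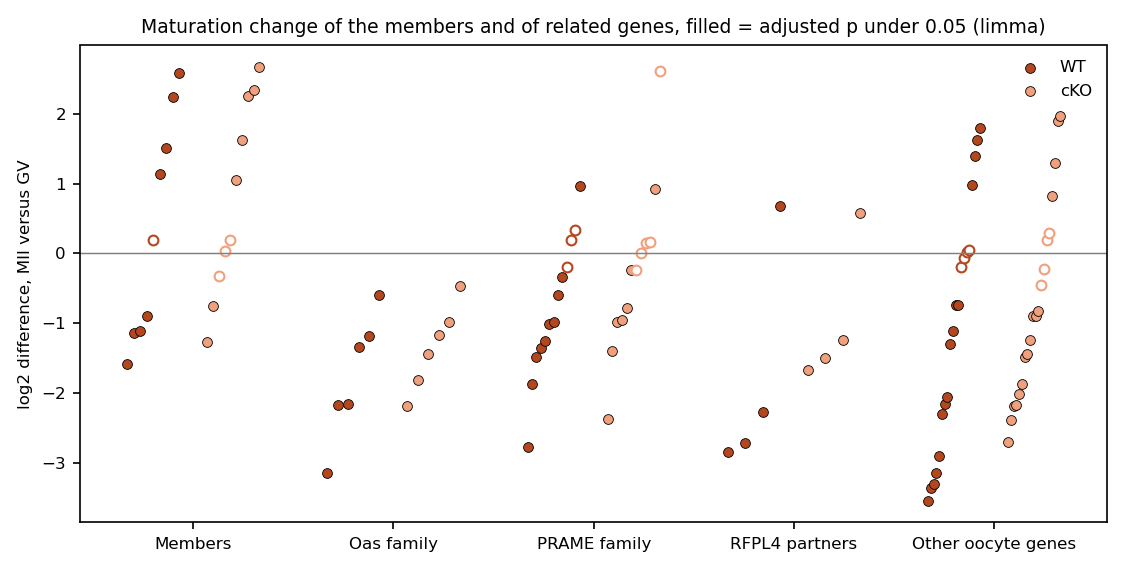
log2 difference of MII eggs against GV oocytes for the members and 4 lists of related genes, 1 point for each entry tested, in WT and cKO (filled where the adjusted p by limma is under 0.05, sorted by value within each column). All 6 Oas relatives fell in both genotypes (5 of 6 in cKO after rescaling), while 4 member entries rose in each genotype, apart from Oog2 entry 2, which is filled in cKO but was tested only because of its level in cKO eggs.

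The same comparison in cKO asked whether the changes occur when Psma7 is deleted in the growing oocyte. Of 9 entries tested, 4 rose and 2 fell. Oog2 entry 2 is left out of this count, since it came over the filter only through its level in cKO eggs. Across all 10748 entries tested, 23.0% rose and 51.0% fell, with a median log2 difference of −0.42, or −0.17 after rescaling. Rescaling moved the share of rises among all calls from 33.3% to 41.9% in WT and from 31.1% to 42.0% in cKO.

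Rfpl4, at 1147, 1296, 1048 and 1220 FPKM in cKO GV, reached 3335, 3873, 3526 and 3766 in cKO MII, 3.08-fold (log2 1.62, SE 0.09, adjusted p = 1.55e-06, limma). Oog3 went from 780, 646, 649 and 601 FPKM to 1259, 1465, 1280 and 1539, 2.07-fold (log2 1.05, SE 0.11, adjusted p = 2.54e-05, limma). Both genes separated the stages completely, as in WT. Omt2a went from 45.7, 37.8, 39.2 and 47.9 FPKM to 213, 226, 208 and 214 (log2 2.34, SE 0.09, adjusted p = 1.18e-06, limma). Omt2b went from 60.9, 49.3, 48.7 and 73.8 FPKM to 349, 430, 339 and 345 (log2 2.67, SE 0.15, adjusted p = 1.36e-06, limma). The egg level was 505 ± 18.0% of the GV mean for Omt2a and 629 ± 74.1% for Omt2b, against 473 ± 63.1% and 599 ± 96.6% in WT, and the ratio of Omt2b to Omt2a was again higher in eggs (1.70 ± 0.139) than in GV oocytes (1.36 ± 0.130).

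Oog1 and Oog2 entry 1 were more scattered in cKO eggs (CV 29.5% and 28.7%) than in WT eggs (12.7% and 7.16%), while the 2 entries of Oog4 were less so (58.9% and 28.2% against 71.8% and 92.3%). Oog1 read 189, 182, 152 and 172 FPKM in cKO GV and 105, 110, 186 and 174 in cKO MII. Replicates 1 and 2 of the eggs lay below every GV library and replicates 3 and 4 within the GV range. The log2 difference was −0.32 (SE 0.19, adjusted p = 0.166, limma), and it passed without cKO MII replicate 3 (−0.46, adjusted p = 0.0401, limma). Oog2 entry 1 fell from 81.3, 79.9, 77.4 and 90.8 FPKM to 69.9, 41.3, 51.9 and 37.9 (log2 −0.75, SE 0.18, adjusted p = 0.00376, limma). Oog4 entry 2 fell from 5.71, 6.59, 6.20 and 5.14 FPKM to 1.53, 2.56, 2.85 and 3.18 without overlap (log2 −1.27, SE 0.22, adjusted p = 0.000655, limma), and the sum of both Oog4 entries did not pass (log2 −0.10, adjusted p = 0.812, limma). Oog4 entry 1, at 14.3, 6.84, 19.2 and 27.8 against 35.4, 20.7, 9.04 and 13.4 FPKM, overlapped throughout (log2 0.19, SE 0.49, adjusted p = 0.741, limma). Oas1d read 1442, 1503, 1569 and 1403 FPKM in cKO GV and 1769, 1612, 1359 and 1376 in cKO MII (log2 0.04, SE 0.10, adjusted p = 0.738, limma), and passed as higher only with rescaled libraries among the alternatives run (0.29, adjusted p = 0.0347, limma). The 6 Oas relatives tested fell in cKO too (median log2 −1.31), and all but Oas1b also after rescaling. Of 12 PRAME entries tested, 6 fell and C87499 rose. After rescaling, 5 fell, C87414 changed sign and lost its call, and C87977 entry 2 passed as higher.

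The comparison of genotypes in GV oocytes asked what the deletion does before maturation. No entry of the 9 tested passed, where 0.0994% of 11062 entries were called higher and 0.0181% lower. Counting unadjusted p under 0.05, 1 of 9 member entries and 1182 of all 11062 entries passed, so the member share was close to that of all entries. The 1 was Oog4 entry 1, at 27.2 to 57.8 FPKM in WT and 6.84 to 27.8 in cKO, ranges that overlapped narrowly, with a log2 difference of −1.35 (SE 0.37, adjusted p = 0.203, limma). Entry 2 of the same gene differed by −0.28 (SE 0.22, adjusted p = 0.697, limma). The differences of Rfpl4 (−0.07, SE 0.11), Oog3 (−0.07, SE 0.11), Oog1 (−0.07, SE 0.11), Oog2 entry 1 (0.04, SE 0.10), Omt2a (−0.19, SE 0.11), Omt2b (−0.15, SE 0.16) and Oas1d (0.01, SE 0.09) ranged from −0.19 to 0.04, with SEs of 0.09 to 0.16. None of the related lists held an entry that passed in GV oocytes.

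In MII eggs, the stage at which the deletion was compared after maturation, no entry of the 10 tested passed either, where 6.53% of 9492 entries were called higher and 1.49% lower in cKO. The share of higher calls among all calls was 81.5%, or 71.1% with rescaled libraries. This background moved with single libraries. The 761 calls became 12, 114, 3 and 39 without WT MII replicates 1, 2, 3 and 4, and 197, 1160, 317 and 418 without cKO MII replicates 1, 2, 3 and 4. By unadjusted p under 0.05, 3 of 10 member entries and 2787 of all 9492 entries passed, so the member share was close to that of all entries. The 3 were Oog1, Oog2 entry 1 and Oog2 entry 2, all higher in cKO, the last with its difference fixed by the filter on low values. Rfpl4 differed by 0.04 (SE 0.08, adjusted p = 0.771, limma), Omt2a by −0.09 (SE 0.09, adjusted p = 0.562, limma), Omt2b by −0.06 (SE 0.13, adjusted p = 0.785, limma), Oas1d by −0.14 (SE 0.10, adjusted p = 0.367, limma) and Oog3 by −0.16 (SE 0.08, adjusted p = 0.239, limma). The 2 entries of Oog4 differed by −0.02 (SE 0.51) and 0.03 (SE 0.49), where the wide errors leave differences of more than 1 log2 unit possible. The paper reports that some oocytes ovulated by cKO females lacked a first polar body or stayed at the GV stage. It reports that others stopped at telophase I. Whether the cKO MII pools held such oocytes was not tested, which limits every comparison that includes this group.

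Oog1 was at 84.7 to 114 FPKM in WT eggs and at 105, 110, 186 and 174 in cKO eggs. The difference was 0.52 (SE 0.20, adjusted p = 0.121, limma). Oog2 entry 1 was at 34.1 to 40.2 FPKM in WT eggs and at 69.9, 41.3, 51.9 and 37.9 in cKO eggs, a difference of 0.40 (SE 0.17, adjusted p = 0.167, limma). The cKO libraries that stood highest were not the same: replicates 3 and 4 for Oog1, replicates 1 and 3 for Oog2 entry 1. The summed level of the 397 non-member transcripts that fell more than 10-fold in WT is given beside these values. They were picked by that fall in these same WT libraries, so their WT egg level is low by choice. Its gap to cKO eggs carries no test. The summed level was 5.93% to 6.80% of the GV level in WT eggs, and 12.7%, 8.80%, 34.5% and 19.0% in cKO eggs of replicates 1 to 4. Its part in the Oog1 and Oog2 values was not tested.

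Oog2 entry 2 stayed under 1 FPKM in 3 groups and was above it in 3 of 4 cKO egg libraries. It read 0.277 to 0.925 FPKM in WT GV, 0.568 to 0.788 in cKO GV, 0.0419 to 0.118 in WT MII, and 0.353, 11.4, 3.12 and 14.4 in cKO MII. It came over the filter on low values only through cKO MII, so it had to differ wherever it was tested, and its differences are given with no test. Taken on values floored at 1 FPKM, cKO eggs were 2.25 log2 units above WT eggs and as much above cKO GV oocytes, since every library of the other 3 groups lay under the floor. The FPKM of entry 1 divided by that of entry 2 was a ratio of whole numbers, to 6 decimals, in every library. With the depths above, and taking the annotated length of Oog2 for both entries, the values correspond to 6 to 25 fragments for entry 2 in WT GV, 14 to 23 in cKO GV, 1 to 3 in WT MII, and 10, 280, 81 and 364 in cKO MII. The table gives no length for either entry, so these fragment numbers depend on that choice. Entry 2 thus held 0.503%, 21.6%, 5.67% and 27.5% of the Oog2 level in cKO eggs and at most 1.37% in any other library.

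With the entries of a gene name added, Oog2 stood at 34.1 to 40.3 FPKM in WT eggs and at 70.3, 52.7, 55.0 and 52.2 in cKO eggs, without overlap. That sum passed as higher in cKO eggs (log2 0.62, adjusted p = 0.0216, limma), where entry 1 alone did not (0.40, adjusted p = 0.167, limma). The call rests in part on entry 2, which was above 1 FPKM only in cKO eggs. It was 1 of 800 calls in the fit of summed entries, which was not repeated with libraries left out. The sum still fell from GV to MII in cKO (log2 −0.54, adjusted p = 0.00178, limma). Entry 1 was lowest in the cKO egg library where entry 2 was highest (replicate 4), and the reverse held for replicate 1. Psma7 itself read 13.6, 50.3, 35.0 and 59.9 FPKM in cKO eggs of replicates 1 to 4, the same order as entry 2. With 4 libraries this order is a description. The table does not say what transcript entry 2 stands for, and 45.2% of the 50-base stretches of annotated Oog2 occur elsewhere.

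**Figure D3:**
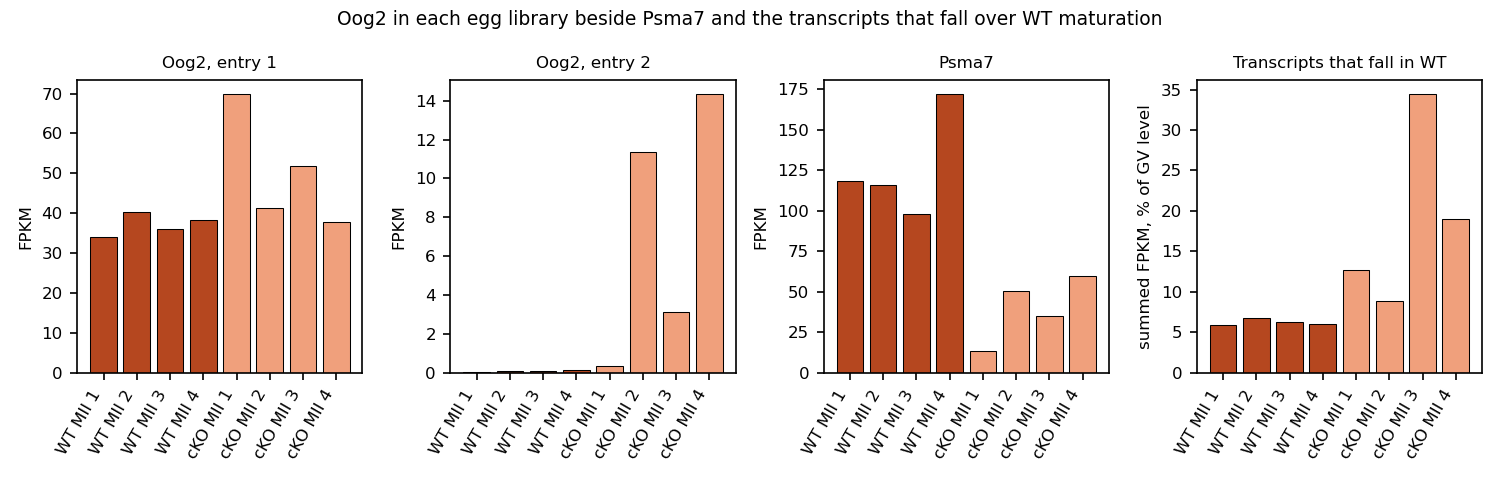
Oog2 entries 1 and 2 and Psma7 (FPKM), and the summed level of 397 transcripts that fall over WT maturation (percent of the GV mean), as bars from 0 for each of the 8 egg libraries. The 397 were picked by their fall in these WT libraries, so their WT bars are low by choice. Entry 2 was 11.4 and 14.4 FPKM in cKO MII replicates 2 and 4, which had 50.3 and 59.9 FPKM of Psma7, and at most 0.118 FPKM in WT MII.

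The 2 transcripts most like Oog2 entry 2 over the 16 libraries, by Pearson r on floored log2 FPKM, were entry 2 of its chromosomal neighbour C87977 (r = 0.946) and entry 1 of Med11, a Mediator subunit gene (r = 0.927). On floored values Oog2 entry 2 is the same in every library but cKO MII replicates 2, 3 and 4, so r rests on those libraries. C87977 entry 2 was at 0.344 to 0.842 FPKM in WT eggs and at 0.597, 51.3, 18.9 and 66.7 in cKO eggs, while C87977 entry 1 was at 190 to 230 FPKM in WT eggs and at 263, 184, 508 and 377 in cKO eggs. Entry 1 of C87977 did not pass between genotypes in eggs (log2 0.61, SE 0.27, adjusted p = 0.163, limma). Its entry 2 came over the filter in eggs only through cKO MII, so the difference of 4.00 on floored values is given with no test. Med11 entry 1 was at 0.153, 4.22, 3.09 and 3.16 FPKM in cKO eggs and at most 0.314 in WT eggs. Egg replicate 1 of cKO lay within the WT egg range for C87977 entry 2 and Med11 entry 1, and above it for Oog2 entry 2 (0.353 FPKM against at most 0.118). The second entry of C87977 shared the order of replicates with Oog2 entry 2 and with Psma7. Correlations here are over libraries that share stage, genotype and library depth, and they carry no test.

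Both of the most similar transcripts of Rfpl4, Oog3, Omt2a and Omt2b rose over maturation in each genotype, as their choice by r entails. For Rfpl4 these were Orc6 (r = 0.997), an origin recognition complex gene, and Ccdc90b (r = 0.995). For Oog3 they were Anapc10 (r = 0.994), an anaphase-promoting complex subunit gene, and Bcl2l10 (r = 0.994), an oocyte member of the BCL2 family. Omt2a ran with E330034G19Rik and Smim11 (r = 0.996 each), and Omt2b with 2810408I11Rik and Tcl1 (r = 0.996 each). Oog1 was closest to Gm10436 and Gm2042 (r = 0.989 and 0.988), both of which share its sequence. Oog2 entry 1 was closest to Klrb1 and Gm34697 (r = 0.974 and 0.971). Oas1d (Mfsd4a, r = 0.894, and Lman1, r = 0.873), Oog4 entry 1 (Gid8, r = 0.704, and Gm11423, r = 0.697) and Oog4 entry 2 (Dcaf6, r = 0.868, and Gsr, r = 0.864) had weaker partners, of which Gid8 (log2 −0.18 in WT and 0.02 in cKO) and Lman1 (0.19 and 0.06) did not pass between stages in either genotype. Among the members, r was at least 0.970 for every pair of Rfpl4, Oog3, Omt2a and Omt2b, and 0.997 for Omt2a with Omt2b.

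Related genes in eggs moved as follows between genotypes, where 6.53% of all 9492 entries were called higher in cKO and 1.49% lower. Their lists were chosen with earlier results of these data known. Of 12 PRAME entries tested, Gm13084 and AA792892 were higher in cKO (log2 0.53 and 0.92, adjusted p = 0.0369 and 0.0332, limma). Of 5 Oas entries tested, none passed by limma, and 2 had an unadjusted p under 0.05, beside 2787 of all 9492 entries. Of the 4 RFPL4 partners, Ube2a (0.89, adjusted p = 0.0332, limma), Psmb1 (1.16, adjusted p = 0.0441, limma) and Ubb (1.11, adjusted p = 0.0133, limma) were higher in cKO eggs. Ubb read 575 ± 96.0 FPKM in WT eggs and 1241 ± 189 in cKO eggs, from 4097 ± 493 and 3939 ± 252 in GV oocytes. Of the 20 tested entries of other oocyte genes, 4 were higher in cKO eggs. They were the zona pellucida gene Zp3 (1.20, adjusted p = 0.0203, limma), Figla, which encodes the E-box factor named above (1.57, adjusted p = 0.0311, limma), and Khdc3 (1.09, adjusted p = 0.0338, limma) and Ooep (0.53, adjusted p = 0.0499, limma), which encode subcortical maternal complex proteins. Ooep lost its call with rescaled libraries (adjusted p = 0.0541, limma). Figla was low, at a mean of 1.60 FPKM in WT eggs and 4.96 in cKO eggs. All 9 of these calls were lost without WT MII replicate 1 and likewise without WT MII replicate 3. Over the 8 libraries left out in turn, the differences stayed between 0.43 and 1.84 and the highest adjusted p of each gene was between 0.0628 (Ubb) and 0.138 (Ooep, limma). Ccnb1 (−0.07, SE 0.06, adjusted p = 0.492, limma) did not pass. Ralgds had a mean under 1 FPKM in WT eggs and came over the filter in eggs only through cKO MII. Values under 1 FPKM in both groups were set to 1, so its difference of 0.28 is given with no test. Of the 9, all but Ooep fell over maturation in WT.

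The last comparison asked whether the change over maturation differs between genotypes, by the interaction term in a fit of all 16 libraries. No entry of the 10 tested passed, where 1.07% of 10615 entries had a more positive change in cKO and 0.188% a more negative one. The 134 calls behind these shares became 41 without cKO GV replicate 3 and 651 without cKO MII replicate 2, the lowest and highest over the libraries left out. Oog1 (0.58, SE 0.24, adjusted p = 0.214, limma) and Oog2 entry 2, whose term the filter fixes, were the 2 with an unadjusted p under 0.05. Of all 10615 entries 1881 had such a p, so the member share was close to that of all entries. For Rfpl4 (0.11, SE 0.13), Omt2a (0.10, SE 0.15), Omt2b (0.08, SE 0.22) and Oog3 (−0.09, SE 0.14) the change over maturation in cKO was within 1 SE of that in WT, and for Oas1d the term was −0.15 (SE 0.13). Oog4 entry 1 had a term of 1.33 with an SE of 0.69 (adjusted p = 0.338, limma), with genotype differences of −1.35 in GV oocytes and −0.02 in eggs. Among the related genes, the RFPL4 partners Ube2a (1.03, adjusted p = 0.0434, limma) and Ubb (1.16, adjusted p = 0.0112, limma) and the oocyte genes Zp3 (1.14, adjusted p = 0.0235, limma) and Figla (1.68, adjusted p = 0.0425, limma) passed, each with a smaller fall in cKO, and no Oas or PRAME entry did. Leaving out each of the 16 libraries in turn, Ubb passed in 16 fits, Zp3 in 15 (not without cKO GV replicate 3), Ube2a in 5 and Figla in 4.

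**Figure D4:**
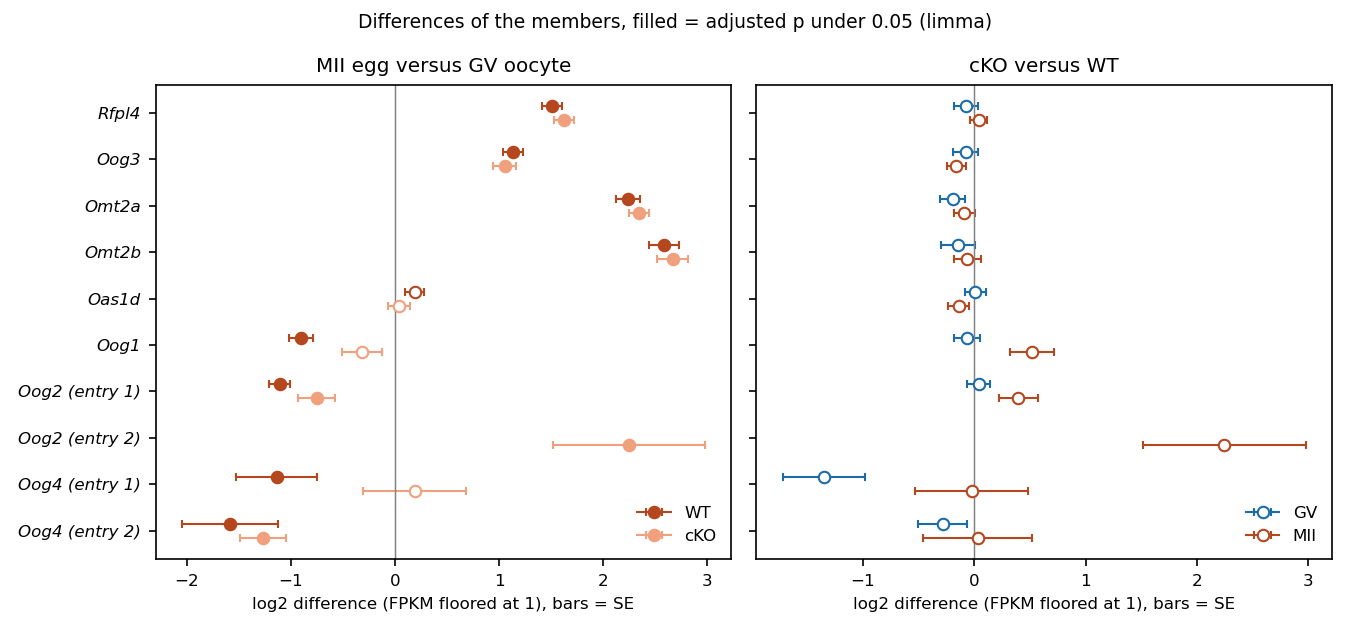
log2 differences of the members with SE bars (n = 4 against 4): MII against GV in WT and cKO on the left, cKO against WT in GV and MII on the right, filled where the adjusted p by limma is under 0.05. The rises of Rfpl4, Oog3, Omt2a and Omt2b overlap between genotypes, and no point on the right is filled. Oog2 entry 2 was tested only through its level in cKO eggs, so its points carry no test.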

How the data were processed

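The data were a table of FPKM values for 16 Smart-seq2 libraries, 4 per group, deposited by the authors as FPKM per entry. The submitters' processing notes name mm10, TopHat2 2.1.1 and Cufflinks 2.2.1 without roles, and the annotation is not given in the sources used here. No raw counts and no spike-in entries were in the table (0 ERCC rows), so levels are relative to the sum of each library. The members and the lists of related genes were chosen with earlier results of these data known. FPKM below 1 were set to 1, values were put on log2, and entries averaging 1 FPKM or more in the compared libraries were fitted with limma 3.58.1 in R 4.3.3 (trended empirical Bayes, Benjamini-Hochberg over all entries, threshold 0.05), with the libraries of the groups compared and no covariate. The interaction used all 16 libraries. The study used the same floor with a 3-fold rule, which was run as an alternative. All member entries are named, as are related genes past the threshold that the text turns on, and the 2 entries with the highest Pearson r to each member. Depth was read from the steps of FPKM below 0.6, using GENCODE lengths of genes with 1 transcript, and covers counting only. This reading and the limma step were tested on simulated data. The limma simulation gave all entries and both groups the same spread, so it does not cover groups that differ in scatter. P-values measure the spread between pools of oocytes. Positions, transcripts and motifs came from GENCODE and RefSeq annotation of GRCm38 (Python 3.11.15). No 2 libraries of a group held identical values, and r between them was 0.965 to 0.992.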

Additional observations from a re-analysis of the deposited data

Results flagged for a closer look

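Of 40 groups of 4 libraries (10 entries in 4 groups), 5 held a library whose gap to the nearest other exceeded Dixon's critical share of the group's range, where chance gives about 2. Oog4 entry 2 was at 7.31 FPKM in WT MII replicate 1, above 1.50, 1.53 and 1.94 in the other egg libraries. Omt2b was at 430 FPKM in cKO MII replicate 2, above 339 to 349 in the others. Oog2 entry 1 was at 66.7 FPKM in WT GV replicate 2, below 84.2 to 86.0 in the others. Oog2 entry 2 was lowest in cKO GV replicate 1 (0.568 FPKM, read as 14 fragments) and in WT MII replicate 1 (0.0419 FPKM, read as 1 fragment), both low counts.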

How the results depend on the processing

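Of the counts of member entries recomputed under an alternative, 88 stayed close to the main count and 8 moved by over 1.5 times. The count in MII eggs went from 0 to 1 with a floor of 0.1 FPKM, with entries summed by gene name, with all 16 libraries in one fit, by the more than 3-fold rule and, over the libraries left out, ranged from 0 to 1 (1 without cKO MII replicate 1). The entry was Oog2 in each case and, other than in the sum, its entry 2, which the filter admits only through cKO eggs, so these changes are no result. The count for the interaction ranged from 0 to 1 likewise, and the 7 for cKO maturation include that entry. The 3-fold rule gave 2 in place of 8 for WT maturation and 4 in place of 7 for cKO maturation, since it asks for a larger change.

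Counts over all entries moved more. The 13 calls in GV oocytes became 3 with no filter, 6 with a mean of at least 5 FPKM, 22 with no intensity trend, 6 with the replicate block, 124 with all 16 libraries in one fit, 7 by the 3-fold rule and 5 to 19 over the libraries left out. The 761 in eggs became 17, 744, 501, 108, 1498 and 169 under the same settings and 3 to 1160 over the libraries left out. For the interaction, 134 became 29 with no filter, 208 with a mean of at least 5 FPKM, 83 with 1 FPKM added, 60 with the replicate block and 41 to 651 over the libraries left out. For maturation, 8224 in WT became 5112 with a mean of at least 5 FPKM and 2427 by the 3-fold rule, and 7954 in cKO became 4962 and 1936. With the replicate block, Ubb was the 1 call among the 9 related genes in eggs that held (adjusted p = 0.0301, limma).

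Among values of single entries, 860 kept direction and side of the threshold, 11 came to pass, 17 ceased to pass and 30 changed sign. All but 1 of the 30 belonged to differences that did not pass in the main fit. Oog2 entry 2 in cKO maturation went to −0.54 when entries were summed, since the sum is mostly entry 1. Oog4 entry 1 went to 0.02 (cKO against WT eggs) and −0.10 (cKO maturation) when summed. With rescaled libraries, the sign changed for Oas1d in GV oocytes (−0.02), Rfpl4 in eggs (−0.01) and Oog4 entry 2 in eggs (−0.02, also −0.02 with 1 FPKM added and −0.28 by means). Leaving out libraries gave, for cKO against WT in GV oocytes, Rfpl4 −0.12 to 0.01, Oog1 −0.12 to 0.03, Oog2 entry 1 −0.05 to 0.08 (−0.01 without cKO GV replicate 4), Oog3 −0.15 to 0.00 and Oas1d −0.03 to 0.07 (−0.02 without WT GV replicate 1 or cKO GV replicate 3). In eggs it gave Oog4 entry 1 −0.37 to 0.40 (0.29 and 0.10 without cKO MII replicates 3 and 4), Oog4 entry 2 −0.19 to 0.57 (−0.18 and −0.07 without WT MII replicates 3 and 4, −0.04 and −0.10 without cKO MII replicates 3 and 4) and Omt2b −0.15 to 0.02. For cKO maturation it gave Oog4 entry 1 −0.19 to 0.50 (−0.15 without cKO MII replicate 1) and Oas1d −0.03 to 0.09, and for the interaction Omt2b −0.01 to 0.21. The cause was not tested for these.

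Same-numbered libraries did not deviate together (r between −0.496 and 0.285 over group pairs), so the numbers were not taken as pairs. With the replicate number as a replicate block, the counts were 0 in GV oocytes, 0 in eggs, 8 for WT maturation, 7 for cKO maturation and 0 for the interaction, as in the fit without it, and it changed no call of a member count. With no filter, most residual variances were zero and limma's moderation is unreliable there. Precision is limited by 4 pools per group and, for Oog2 entry 2, by counts as low as 1 fragment. The shared sequence of Oog1 and the unknown identity of the second entries limit what those values measure.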
